A study of Arabidopsis thaliana with 12 samples.

Results

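A set of 10 genes of Arabidopsis thaliana that belong to the root iron uptake and coumarin programme under the transcription factor FIT were followed across the 4 groups of an RNA-seq series on whole seedlings. They were picked by locus identifier, and all 10 of 10 were among the 21543 loci in the count table. They are the regulators FIT, MYB10 and MYB72, the uptake genes IRT1, FRO2 and AHA2, and the coumarin genes F6'H1, S8H, CYP82C4 and PDR9 (also called ABCG37). The groups were med8 mutant seedlings on medium with 25 nM methyl viologen, med8 seedlings on control medium, seedlings of the accession Col-0 on 25 nM methyl viologen, and Col-0 on control medium, with 3 libraries in each group. All seedlings were 2 weeks old and grew on agar with half-strength MS salts and sucrose in long days, and the treated seedlings were on methyl viologen for the whole time. Seedlings on methyl viologen are also called treated below. Methyl viologen (paraquat) is a herbicide that diverts photosynthetic electrons to oxygen and thereby makes superoxide. MED8 is a subunit of Mediator, the complex between transcription factors and RNA polymerase II. The labels call the line a med8 mutant and name no allele. That the genes depend on FIT is background knowledge, and no fit mutant was measured here.

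Arabidopsis takes up iron by acidifying the soil, reducing ferric iron at the root surface and importing the ferrous ion. FIT, a bHLH protein of the root epidermis, binds DNA as a dimer with a bHLH protein of clade Ib (BHLH38, BHLH39, BHLH100 or BHLH101), and the pair switches on the uptake genes when iron is short. The same programme turns on the synthesis and export of coumarins, phenolic compounds that roots secrete to dissolve and reduce iron in alkaline soil.

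The libraries held 30.47 to 34.69 M counts each. MED8 read 4.85 to 6.21 CPM (read counts relative to library size, scaled by TMM) in med8 on methyl viologen and 5.06 to 6.41 CPM in med8 controls, against 19.4 to 22.2 CPM in treated Col-0 and 18.9 to 20.5 CPM in Col-0 controls. A pair of libraries stood apart from their own groups over all genes: med8 control replicate 3 and Col-0 control replicate 1. The chi-square per degree of freedom of med8 control replicate 3 against the other med8 controls was 35.52 and 38.28, against 6.51 between those others. For Col-0 control replicate 1 it was 35.94 and 26.82, against 9.15 between the other Col-0 controls. In med8 control replicate 3 the level of each of the 10 genes was 25.9% to 58.7% of the mean of the other med8 controls, so the response of each gene in med8 and its interaction are also given without it. Means of the med8 controls and counts over other gene lists include it unless stated. Nothing in the labels says whether replicates were separate plates or sowings, so the p-values below measure the spread between these samples.

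The programme was higher on methyl viologen in med8 seedlings, and in part in Col-0. MYB72 passed the filter on low counts only through its methyl viologen libraries. The filter thus favoured a positive treatment response for this gene. MYB72 is therefore left out of the counts of genes that rose or fell with methyl viologen, while counts given of the 10 include it. The other 9 genes all rose in med8 on methyl viologen against med8 controls, with a median log2 fold change of 1.8 (1.48 without med8 control replicate 3), in a comparison where edgeR called 21.8% of all genes higher and 21.2% lower, and where the median over all genes was 0.03. The largest rises were those of CYP82C4 (9.02-fold, and 6.74-fold without that library) and S8H (7.41-fold and 5.56-fold), which carry out the late hydroxylation steps of coumarin synthesis. In Col-0, 2 of the 9 rose (MYB10 and IRT1), none fell, and the median was 0.7, where 15.4% of all genes were called higher and 13.4% lower. Without methyl viologen, edgeR called none of the 10 different between med8 and Col-0 (of all genes, 5.79% were called, 2.81% higher and 2.98% lower). DESeq2 called 2, FIT and AHA2, both lower, where it called 4.90% of all genes higher and 4.72% lower. An unadjusted p under 0.05 was reached by 3, all lower in med8, and the share of all genes at that p was not taken. On methyl viologen, 5 of the 10 (MYB10, FRO2, F6'H1, S8H and CYP82C4) were higher in med8 than in Col-0, and none was lower, where 10.8% of all genes were called higher and 12.9% lower. The response of med8 exceeded that of Col-0 past the threshold for 4 genes (FIT, AHA2, S8H and CYP82C4), where 6.25% of all genes had a called positive interaction and 7.66% a negative one. These comparisons share samples: each group of libraries enters more than one of them. A call here means a Benjamini-Hochberg adjusted p under 0.05 over the 20741 genes tested, in edgeR's quasi-likelihood test. In the fits of all 12 libraries with edgeR and DESeq2, none of the 10 was called lower in a comparison other than that of the controls. The exception among the other fits was FIT in Col-0, which was called lower without med8 control replicate 3.

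These are mostly root genes measured in whole seedlings, and in such samples fewer cells of a type and less RNA per cell cannot be told apart. Of 10 root hair and epidermis markers, 7 fell and 1 rose in med8 with methyl viologen (median −1.69), and 5 fell and none rose in Col-0 (median −1.04), to be read against the shares of all genes given above. Their summed level was 22.3 to 26.8 CPM in med8 on methyl viologen and 28.1 to 88.8 CPM in med8 controls, against 27.9 to 56.5 CPM in treated Col-0 and 67.7 to 94.4 CPM in Col-0 controls, while IRT1, FRO2 and the coumarin genes had higher means in the treated group of each genotype. Of 10 inner root markers, 4 rose and 1 fell in med8 (median 0.04), and 4 rose and none fell in Col-0 (median 0.25). PHO1, which loads phosphate into the xylem, rose 2.44-fold in med8 and 1.45-fold in Col-0. PLT1, a root stem cell regulator, rose in both genotypes. It averaged 3.27 CPM in treated and 0.454 CPM in control med8, and 1.96 CPM in treated and 0.632 CPM in control Col-0. Without med8 control replicate 3, the endodermal genes CASP1 and CASP2 fell in both genotypes, at −1.57 and −1.50 in med8 and −0.97 and −0.79 in Col-0. The mean log2 CPM of the inner root list was 3.59 to 3.73 in treated and 2.70 to 3.32 in control med8, which did not overlap, and 3.43 to 3.66 in treated and 3.25 to 3.39 in control Col-0. Its summed level, most of it from PYK10, was 1238 to 1325 CPM and 815 to 1474 CPM in treated and control med8, and 1819 to 2589 CPM and 1558 to 1921 CPM in treated and control Col-0. The 6 shoot markers all fell in med8, while 1 rose and 1 fell in Col-0, and they summed to 32430 to 39490 CPM in treated and 49360 to 59700 CPM in control med8, and to 38140 to 39790 CPM in treated and 43490 to 53660 CPM in control Col-0. In med8 control replicate 3 the root hair list (28.1 CPM) and the inner root list (815 CPM) were the lowest of the med8 controls and the shoot list (59700 CPM) the highest, in the same library where all 10 genes were low. No marker was at 0 in any library, and the part of tissue shares in the results was not tested.

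**Figure D1:**
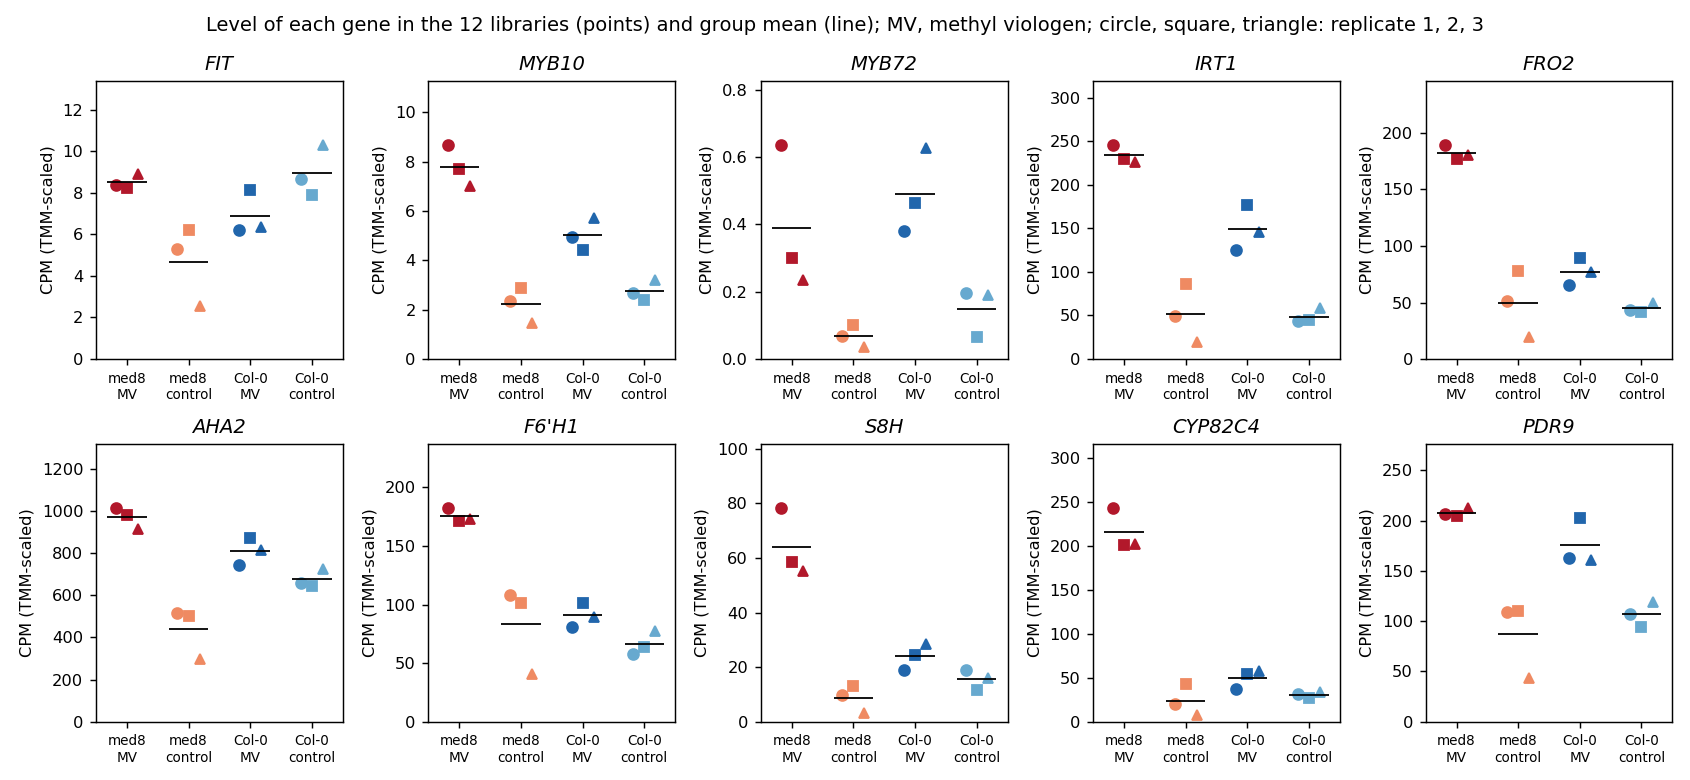
Level of each of the 10 genes in CPM (linear axis from 0) in the 12 libraries, grouped as med8 on methyl viologen (MV), med8 control, Col-0 on methyl viologen and Col-0 control; points are libraries and lines are means of 3. All 10 genes have med8 methyl viologen libraries above the med8 controls, and the triangle of med8 control replicate 3 is the lowest of its group in every panel.

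The 200 bases upstream of each annotated start were searched for the E-box CANNTG, the kind of site that bHLH proteins bind, and for its form CACGTG (the G-box), which CANNTG includes. Both read the same on either strand. CANNTG occurred in 4 of the 10 promoters (MYB10, F6'H1, S8H and PDR9), against 47.3% of 27438 protein-coding promoters of the same length, and CACGTG in 0 of the 10, against 5.6%. A match is only a run of letters, and a window without one says nothing of binding further upstream. The 5 promoters below are those of MYB10 and IRT1, which rose in both genotypes, and of the coumarin genes F6'H1, S8H and CYP82C4. Those of FIT and AHA2, which had called interactions and no match, are not printed, so the 5 do not stand for the 10. The sequences are from RefSeq, build TAIR10.1, 5′ to 3′ on the strand of the gene, with CANNTG in capitals.
MYB10 (AT3G12820, chr3:4075644-4075843, minus strand): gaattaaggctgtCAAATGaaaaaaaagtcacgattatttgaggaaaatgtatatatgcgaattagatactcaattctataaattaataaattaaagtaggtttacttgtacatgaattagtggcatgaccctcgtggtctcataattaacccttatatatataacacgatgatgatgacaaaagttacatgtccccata
IRT1 (AT4G19690, chr4:10707144-10707343, plus strand): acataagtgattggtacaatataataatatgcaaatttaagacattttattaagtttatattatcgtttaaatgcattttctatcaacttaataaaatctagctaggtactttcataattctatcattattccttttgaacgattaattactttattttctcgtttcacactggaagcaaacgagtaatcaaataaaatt
F6'H1 (AT3G13610, chr3:4449059-4449258, plus strand): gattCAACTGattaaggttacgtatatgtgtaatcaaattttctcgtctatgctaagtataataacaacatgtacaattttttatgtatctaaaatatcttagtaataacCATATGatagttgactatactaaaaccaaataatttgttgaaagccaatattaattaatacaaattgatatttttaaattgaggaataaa
S8H (AT3G12900, chr3:4104263-4104462, plus strand): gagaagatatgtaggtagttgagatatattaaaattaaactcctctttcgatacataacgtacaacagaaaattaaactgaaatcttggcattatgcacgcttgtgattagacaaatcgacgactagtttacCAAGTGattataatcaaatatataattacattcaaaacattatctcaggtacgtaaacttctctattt
CYP82C4 (AT4G31940, chr4:15451788-15451987, plus strand): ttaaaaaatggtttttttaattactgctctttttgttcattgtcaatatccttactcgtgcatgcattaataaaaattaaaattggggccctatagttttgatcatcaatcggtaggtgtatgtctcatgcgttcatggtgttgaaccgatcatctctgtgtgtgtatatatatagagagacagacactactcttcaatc
The match in MYB10 starts at position -187 from the annotated start and the one in S8H at -68. F6'H1 had matches at -196 and -90. The windows of IRT1 and CYP82C4 held none. A relation between matches and responses was not tested.

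FIT itself (AT2G28160; TAIR10.1 chromosome 2, 12004658 to 12006276, plus strand) was one of the scarcest transcripts of the set. It read 8.38, 8.25 and 8.89 CPM in med8 on methyl viologen and 5.30, 6.21 and 2.53 CPM in med8 controls, against 6.20, 8.15 and 6.35 CPM in treated Col-0 and 8.66, 7.88 and 10.3 CPM in Col-0 controls. The med8 controls were the lowest group and did not overlap the med8 libraries on methyl viologen or the Col-0 controls. FIT rose in med8 with methyl viologen (log2 0.86 ± 0.25 SE, edgeR adjusted p = 0.0153), while its value in Col-0 was −0.37 ± 0.24 (edgeR adjusted p = 0.273). The 2 responses differed (1.23 ± 0.35, edgeR adjusted p = 0.0354). On control medium FIT was at −0.93 ± 0.25 in med8 against Col-0 (edgeR adjusted p = 0.0509), just short of the threshold. Without med8 control replicate 3 that difference was −0.63 and was called (edgeR adjusted p = 0.0321), and the Col-0 value of −0.38 became a call as well (edgeR adjusted p = 0.0419). The med8 rise was then 0.55 (edgeR adjusted p = 0.0104) and the interaction 0.93 (edgeR adjusted p = 0.008). The interaction lost its call in each of 6 fits that left out Col-0 control replicate 3, Col-0 methyl viologen replicate 1 or 3, or any of the med8 methyl viologen replicates (highest edgeR adjusted p = 0.09).

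MYB10 and MYB72 encode related MYB factors that act below FIT and are needed for growth on little iron. MYB10 (AT3G12820; chromosome 3, 4073855 to 4075643, minus strand) read 8.67, 7.70 and 7.02 CPM in med8 on methyl viologen and 2.34, 2.87 and 1.46 CPM in med8 controls, against 4.93, 4.41 and 5.72 CPM in treated Col-0 and 2.67, 2.39 and 3.19 CPM in Col-0 controls. In neither genotype did treated and control libraries overlap, and the 3 med8 libraries on methyl viologen were above all others. MYB10 rose in med8 (1.80 ± 0.21, edgeR adjusted p = 5.07e-05) and in Col-0 (0.87 ± 0.21, edgeR adjusted p = 0.00851). It was also higher in med8 than in Col-0 on methyl viologen (0.63 ± 0.20, edgeR adjusted p = 0.0359), a call that 5 of 6 fits leaving out 1 methyl viologen library lost (all but the one without Col-0 replicate 3), as did the fit with the replicate number as a block. The interaction was 0.94 ± 0.29 (edgeR adjusted p = 0.056).

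MYB72 (AT1G56160; chromosome 1, 21022384 to 21023587, plus strand) was close to absent. It had 22, 11 and 9 reads in med8 on methyl viologen and 2, 3 and 1 reads in med8 controls, against 14, 16 and 22 reads in Col-0 on methyl viologen and 6, 2 and 6 reads in Col-0 controls. Treated and control libraries did not overlap in either genotype, and MYB72 passed the filter on low counts only through its methyl viologen libraries. Its fitted log2 differences of 2.42 ± 0.60 in med8 and 1.68 ± 0.49 in Col-0 are therefore descriptions, and nothing is read from their test. MYB10, MYB72 and F6'H1 each overlap an annotated gene on the opposite strand (AT3G12810, AT1G56165 and AT3G13620), and the strand setting of the counting is not given in the sources used here, so reads of each pair cannot be told apart. For MYB72, with so few reads, this bears on every value.

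The uptake genes work at the plasma membrane of root epidermal cells. IRT1, the ferrous iron transporter (AT4G19690; chromosome 4, 10707344 to 10709015, plus strand), read 246, 229.5 and 227 CPM in med8 on methyl viologen and 49.0, 86.5 and 19.7 CPM in med8 controls, against 125, 177 and 145.5 CPM in treated Col-0 and 43.5, 44.5 and 58.4 CPM in Col-0 controls. Both treated groups lay above both control groups with no overlap. IRT1 rose 4.52-fold in med8 (2.18 ± 0.39, edgeR adjusted p = 0.000944) and 3.06-fold in Col-0 (1.61 ± 0.38, edgeR adjusted p = 0.00828). It was called in both genotypes in all 20 alternatives of each comparison. The med8 libraries on methyl viologen lay above the Col-0 ones, but the difference of 0.65 ± 0.37 was not called (edgeR adjusted p = 0.234), except in the fit of those 2 groups alone and in both fits without med8 control replicate 3. The interaction was 0.56 ± 0.52 (edgeR adjusted p = 0.556). Which med8 control was left out moved the med8 rise between 1.78 (without replicate 3) and 2.77 (without replicate 2), and the interaction between 0.17 and 1.15.

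FRO2, the ferric chelate reductase that supplies IRT1 with ferrous iron (AT1G01580; chromosome 1, 208995 to 213082, plus strand), read 189, 177 and 181 CPM in med8 on methyl viologen and 51.7, 78.1 and 19.9 CPM in med8 controls, against 65.7, 89.5 and 76.8 CPM in treated Col-0 and 43.6, 41.9 and 49.3 CPM in Col-0 controls. The med8 libraries on methyl viologen were above every other library, and the med8 controls spanned the widest range. FRO2 rose 3.65-fold in med8 (1.87 ± 0.35, edgeR adjusted p = 0.00128). In Col-0 the libraries did not overlap, at 0.78 ± 0.34 (edgeR adjusted p = 0.11), and the call was made without med8 control replicate 3 (edgeR adjusted p = 0.00154). On methyl viologen FRO2 was 2.36-fold higher in med8 than in Col-0 (edgeR adjusted p = 0.0217). That call was lost in the fits without Col-0 methyl viologen replicate 1 or 3 or any med8 methyl viologen replicate (highest edgeR adjusted p = 0.0831). FRO2 had an interaction of 1.09 ± 0.48 (edgeR adjusted p = 0.172). The interaction was called without med8 control replicate 3 (0.70, edgeR adjusted p = 0.0492) and without med8 control replicate 2 (1.56, edgeR adjusted p = 0.032).

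AHA2, the plasma membrane proton pump that acidifies the root surface (AT4G30190; chromosome 4, 14770395 to 14776247, minus strand), was the most abundant of the set per length. It read 1015, 982 and 914 CPM in med8 on methyl viologen and 517, 500.5 and 299 CPM in med8 controls, against 745, 870 and 817 CPM in treated Col-0 and 658, 644 and 724 CPM in Col-0 controls. The 4 groups fell in 4 separate ranges, with med8 on methyl viologen the highest and med8 controls the lowest. AHA2 rose 2.21-fold in med8 (1.14 ± 0.17, edgeR adjusted p = 0.000249) and was at 0.26 ± 0.17 in Col-0 (edgeR adjusted p = 0.264). The responses differed (0.88 ± 0.24, edgeR adjusted p = 0.029). The interaction call was lost in 6 fits that each left out 1 library, Col-0 control replicate 2 or 3, Col-0 methyl viologen replicate 1 or 3, or med8 methyl viologen replicate 1 or 2 (highest edgeR adjusted p = 0.0775). On control medium its value in med8 against Col-0 was −0.62 ± 0.17 (edgeR adjusted p = 0.0523), and without med8 control replicate 3 it was −0.40 and called (edgeR adjusted p = 0.029). AHA1, the closely related pump of the same membrane, which was listed with the other transporters, averaged 688 ± 37.3 CPM in med8 on methyl viologen, 621 ± 19.8 CPM in med8 controls, 665.5 ± 40.5 CPM in treated Col-0 and 646.5 ± 14.9 CPM in Col-0 controls (SD, n = 3 each).

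**Figure D2:**
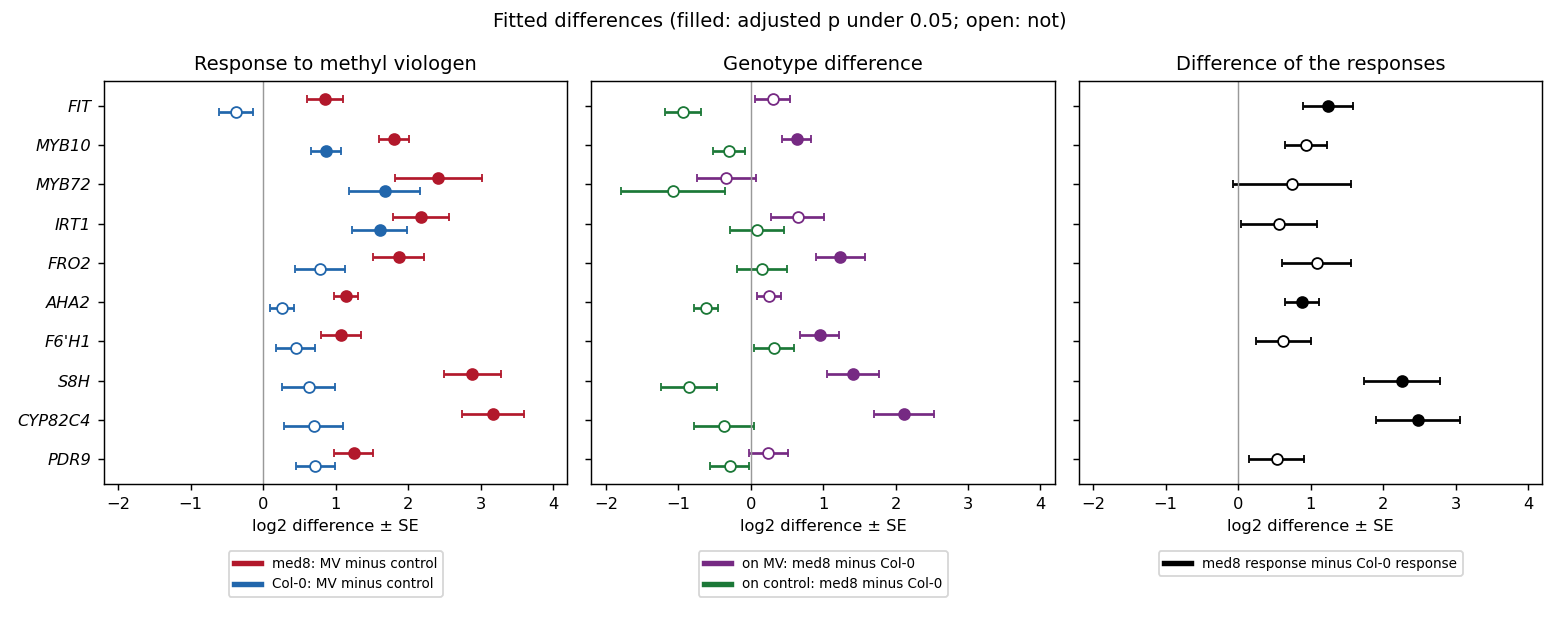
Fitted log2 differences with SE (bars) for the 10 genes: methyl viologen minus control in med8 and in Col-0 (left), med8 minus Col-0 on methyl viologen and on control medium (middle), and the difference of the 2 responses (right). Filled points passed an adjusted p of 0.05; all 10 are filled for the med8 response and 3 for the Col-0 response, MYB72 in both although it passed the low count filter only through its treated libraries, and S8H and CYP82C4 stand farthest right in the med8 response and the interaction.

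The coumarin genes form a short pathway. F6'H1 makes the precursor of scopoletin from a coenzyme A ester of the phenylpropanoid pathway, S8H hydroxylates scopoletin to fraxetin, CYP82C4 hydroxylates fraxetin to sideretin, and the ABC transporter PDR9 exports such compounds from the root. F6'H1 (AT3G13610; chromosome 3, 4449259 to 4450811, plus strand) read 182.5, 171 and 173 CPM in med8 on methyl viologen and 108, 102 and 40.9 CPM in med8 controls, against 81.0, 102 and 89.7 CPM in treated Col-0 and 58.0, 64.2 and 77.6 CPM in Col-0 controls. Each treated group lay above its own controls, and the med8 controls overlapped both Col-0 groups. F6'H1 rose in med8 (1.07 ± 0.28, edgeR adjusted p = 0.00865) and was at 0.45 ± 0.27 in Col-0 (edgeR adjusted p = 0.252). It was 1.93-fold higher in med8 than in Col-0 on methyl viologen (edgeR adjusted p = 0.0273). That last call was lost in each of the 6 fits without 1 methyl viologen library (highest edgeR adjusted p = 0.096). Without med8 control replicate 3, F6'H1 was the only one of the 10 genes called higher in med8 controls than in Col-0 controls (0.66 ± 0.11, edgeR adjusted p = 0.00689), and its Col-0 response of 0.44 was called (edgeR adjusted p = 0.00536).

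S8H (AT3G12900; chromosome 3, 4104463 to 4106341, plus strand) read 78.4, 58.4 and 55.2 CPM in med8 on methyl viologen and 9.70, 13.1 and 3.03 CPM in med8 controls, against 18.88, 24.6 and 28.6 CPM in treated Col-0 and 18.85, 11.6 and 16.2 CPM in Col-0 controls. The med8 libraries on methyl viologen were far above all others, while the lowest treated and highest control library of Col-0 almost met. S8H rose in med8 (2.89 ± 0.39, edgeR adjusted p = 0.000156) and was at 0.63 ± 0.37 in Col-0 (edgeR adjusted p = 0.231). On methyl viologen it was 2.66-fold higher in med8 (edgeR adjusted p = 0.0155), a call lost without Col-0 methyl viologen replicate 1 or 2 or med8 methyl viologen replicate 1 (highest edgeR adjusted p = 0.0686). The interaction was 2.26 ± 0.53 (edgeR adjusted p = 0.0156) and was called in all 19 of its alternatives. S8H lies 28.8 kb from MYB10 on chromosome 3 with 9 protein-coding genes between them, and 342.9 kb from F6'H1.

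CYP82C4 (AT4G31940; chromosome 4, 15451988 to 15454224, plus strand) read 243, 201 and 202.5 CPM in med8 on methyl viologen and 20.7, 42.6 and 8.19 CPM in med8 controls, against 37.5, 54.0 and 58.0 CPM in treated Col-0 and 31.2, 27.0 and 34.0 CPM in Col-0 controls. Its med8 libraries on methyl viologen were several-fold above every other library. CYP82C4 rose in med8 (3.17 ± 0.43, edgeR adjusted p = 0.000166) and was at 0.70 ± 0.41 in Col-0 (edgeR adjusted p = 0.228). It was 4.33-fold higher in med8 than in Col-0 on methyl viologen (2.11 ± 0.41, edgeR adjusted p = 0.0036). The interaction was 2.48 ± 0.58 (edgeR adjusted p = 0.0158). The med8 rise, the difference on methyl viologen and the interaction were called in every alternative run for CYP82C4. Their sizes depended on the med8 controls: the rise was 2.75 without replicate 3 and 3.90 without replicate 2, and the interaction 2.06 and 3.20. Over the alternatives run the interaction ranged from 2.04 (without both libraries that stood apart) to 3.20. Of the 75-base windows in its exons 97.2% are unique in the genome, against 100% for the other 9 genes, so few of its reads could be shared with a paralog.

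PDR9 (AT3G53480; chromosome 3, 19825267 to 19831880, plus strand) read 206, 204 and 213 CPM in med8 on methyl viologen and 109, 110 and 43.1 CPM in med8 controls, against 163, 202 and 161 CPM in treated Col-0 and 107, 94.1 and 119 CPM in Col-0 controls. Treated libraries lay above controls in both genotypes, and the med8 and Col-0 groups on methyl viologen nearly met. PDR9 rose 2.38-fold in med8 (1.25 ± 0.27, edgeR adjusted p = 0.00342) and was at 0.72 ± 0.27 in Col-0 (edgeR adjusted p = 0.0679), a value called by DESeq2, in the fit of those 2 groups alone and without med8 control replicate 3 (edgeR adjusted p = 0.000182). The genotypes were at 0.24 ± 0.27 on methyl viologen (edgeR adjusted p = 0.56), and the interaction was 0.53 ± 0.38 (edgeR adjusted p = 0.42).

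The single library med8 control replicate 3 thus moved several of these counts. Without it, 6 of the 9 genes other than MYB72 rose in Col-0 and FIT fell, where 18.6% of all genes were called higher and 16.9% lower, and all 9 still rose in med8, where 23.7% of all genes were called higher. The med8 rises were then 0.55 for FIT, 1.57 for MYB10, 1.78 for IRT1, 1.48 for FRO2, 0.92 for AHA2, 0.73 for F6'H1, 2.47 for S8H, 2.75 for CYP82C4 and 0.91 for PDR9. Each was smaller than in the fit of all 12 libraries. The interactions were 0.93 for FIT, 0.66 for AHA2, 1.85 for S8H, 2.06 for CYP82C4 and 0.70 for FRO2, all 5 called, where 6.98% of all genes had a positive call. Those of MYB10 (0.70, edgeR adjusted p = 0.0533), IRT1 (0.17), F6'H1 (0.29) and PDR9 (0.19) were not called. The gene-wise SE was also smaller without it: that of PDR9 in Col-0 was 0.10 in place of 0.27. The difference between treated med8 and treated Col-0, whose estimate shares only the spread with that library, was then called for 7 genes, IRT1 and AHA2 in addition to the 5, where 14.3% of all genes were called higher. Leaving out 1 methyl viologen library left 1 to 3 calls on methyl viologen, where 6.60% to 9.23% of all genes were called higher, and CYP82C4 was among them each time.

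Among the 9 genes other than MYB72, libraries of treated and control seedlings did not overlap for 9 of 9 in med8, all with methyl viologen higher, where 28.1% of all genes did so in that direction. In Col-0 they did not overlap for 8 of 9 (all but FIT), where 22.9% of all genes were separate in that direction. Between med8 and Col-0 on methyl viologen 9 of 9 were separate with med8 higher, where 23.1% of all genes were. In controls 2 of 9 were separate (FIT and AHA2, both with med8 lower), where 11.4% of all genes were. For MYB10, IRT1, FRO2, AHA2, F6'H1, S8H, CYP82C4 and PDR9, med8 on methyl viologen had the highest mean and was separate from the group next to it. The share of all genes with that order was not taken, so this is a description only. The exceptions were FIT, with the highest mean in Col-0 controls, and MYB72, with the highest mean in Col-0 on methyl viologen, both overlapping med8 on methyl viologen.

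Per kilobase of exon, levels could be compared between genes. AHA2 was the highest in every group, at 262 CPM per kb in med8 on methyl viologen and 119 in med8 controls, against 219 in Col-0 on methyl viologen and 183 in Col-0 controls. IRT1 came next in both treated groups (149.6 CPM per kb in med8 and 95.4 in Col-0) and F6'H1 in both control groups (56.8 in med8 and 45.3 in Col-0). FIT, MYB10 and MYB72 were the lowest of the set in every group, in that order. FIT stood at 6.17 CPM per kb in treated med8 and 3.39 in med8 controls, against 5.0 in treated Col-0 and 6.48 in Col-0 controls. CYP82C4 stood at 114 CPM per kb in treated med8 and 12.6 in med8 controls, against 26.4 in treated Col-0 and 16.3 in Col-0 controls.

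The level of the targets relative to FIT can be read from the reads of each gene per FIT read in the same library, a measure that needs no scaling between libraries. IRT1 had 25.5 to 29.3 reads per FIT read in med8 on methyl viologen and 7.80 to 13.9 in med8 controls, against 20.2 to 22.9 in Col-0 on methyl viologen and 5.02 to 5.68 in Col-0 controls. CYP82C4 had 22.8 to 29.0 in med8 on methyl viologen and 3.24 to 6.86 in med8 controls, against 6.04 to 9.14 in Col-0 on methyl viologen and 3.30 to 3.60 in Col-0 controls. IRT1 per FIT read was higher in treated than in control libraries of both genotypes, and CYP82C4 per FIT read was far higher in treated med8 than in any other group. In Col-0 all 8 genes other than FIT and MYB72 had more reads per FIT read in every treated library than in any control library, as 35.2% of all genes did. In med8 the same held for 6 of the 8, all but AHA2 and F6'H1, as it did for 3.35% of all genes. The denominator itself differed between genotypes: FIT was at −0.37 in Col-0 (log2, not called) and rose 0.86 in med8. Each of these counts is therefore to be read against its own share of all genes. AHA2 had 103 to 121 reads per FIT read in med8 on methyl viologen and 80.6 to 118 in med8 controls. On methyl viologen, IRT1, FRO2, F6'H1, S8H and CYP82C4 had more reads per FIT read in every med8 library than in any Col-0 library, as 7.02% of all genes did. For PDR9 the treated groups nearly met, at 23.91 to 24.75 reads per FIT read in med8 and 24.83 to 26.3 in Col-0. In med8 control replicate 3, where FIT had 71 reads, IRT1 had 7.80 reads per FIT read and AHA2 had 118.

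**Figure D3:**
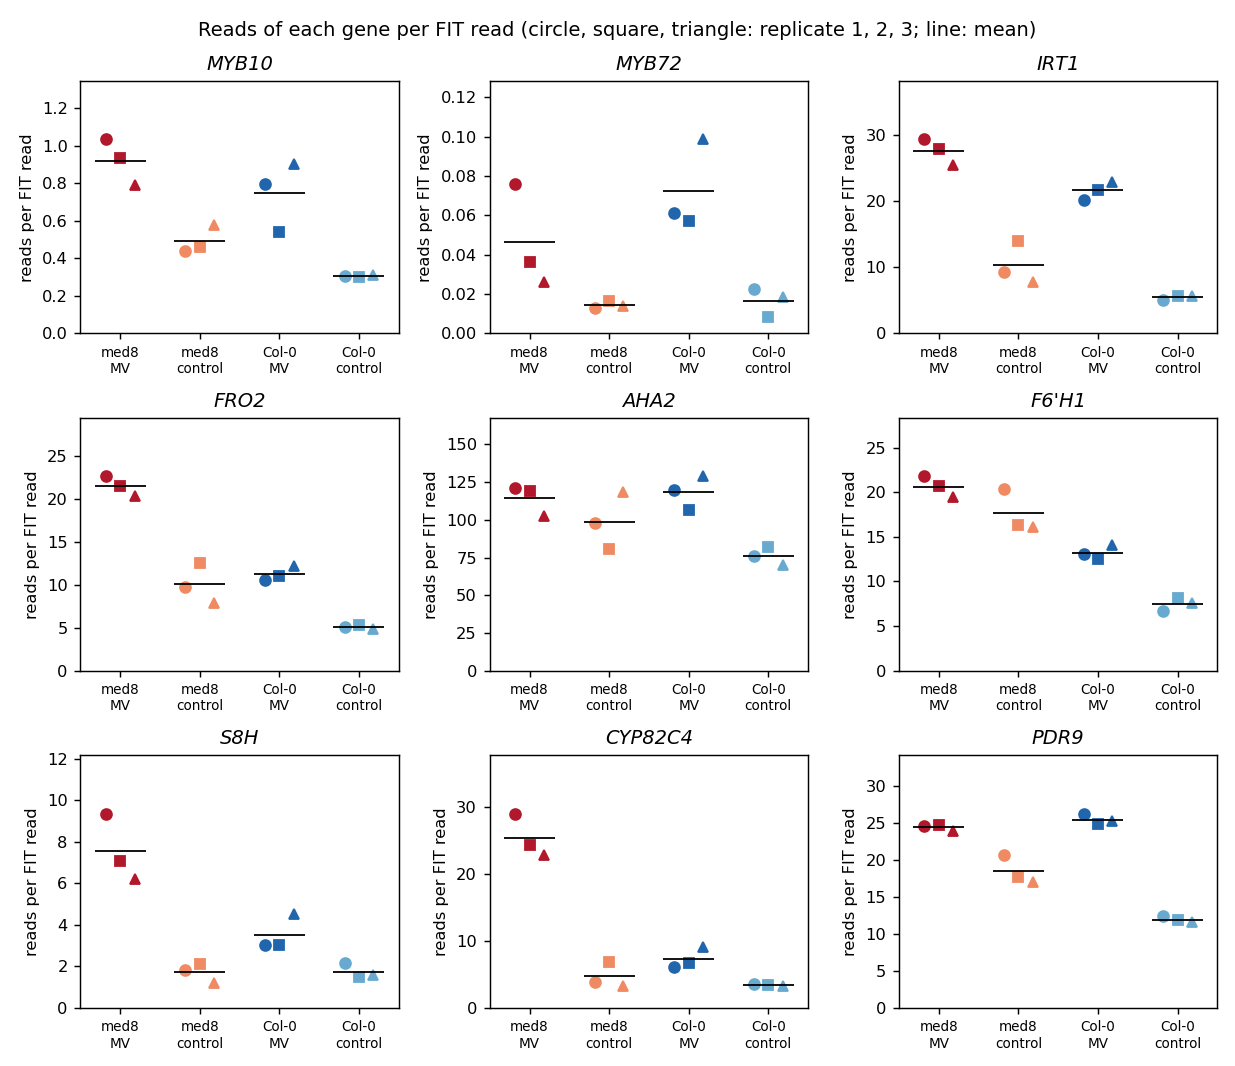
Reads of each of the 9 other genes per FIT read in the same library (linear axis from 0), in med8 on methyl viologen (MV), med8 control, Col-0 on methyl viologen and Col-0 control; points are libraries and lines are means of 3. S8H and CYP82C4 are highest in treated med8, at means of 7.55 and 25.4, while AHA2 is near 114 and 98.8 in treated and control med8.

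The clade Ib bHLH genes, the partners of FIT, went the other way between genotypes. Their summed level was 111, 148 and 116 CPM in med8 on methyl viologen and 115, 92.0 and 122 CPM in med8 controls, against 869, 717 and 579 CPM in treated Col-0 and 19.99, 17.03 and 36.77 CPM in Col-0 controls. The treated and control med8 libraries overlapped, whereas the Col-0 groups lay on either side of them. All 4 rose in Col-0, at 5.20 for BHLH38, 4.47 for BHLH39, 5.34 for BHLH100 and 3.59 for BHLH101 (log2, highest edgeR adjusted p = 2.32e-06). In med8, BHLH39 rose (0.76, edgeR adjusted p = 0.021, and 0.0515 without med8 control replicate 3) and BHLH101 fell (−0.78, edgeR adjusted p = 0.00142), and BHLH38 and BHLH100 were at 0.38 and −0.03. All 4 were higher in med8 than in Col-0 on control medium (1.55 to 2.67) and lower on methyl viologen (−2.74 to −2.11), and each interaction was called (−5.37 to −3.71, highest edgeR adjusted p = 6.51e-05). The genes other than FIT had a mean log2 level of 6.39, 6.15 and 6.09 in treated med8, above 5.21, 5.52 and 5.51 in treated Col-0. That mean includes MYB72, which was close to absent and passed the low count filter only through its treated libraries. The clade Ib mean was 4.64, 5.03 and 4.70 in treated med8 and 7.48, 7.23 and 6.91 in treated Col-0. In med8 control replicate 3, where the 10 genes were low, the clade Ib genes were at 92.5% to 136% of the other med8 controls. BHLH38 and BHLH39 are neighbours of similar sequence, and reads of the clade may be shared among its members.

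**Figure D4:**
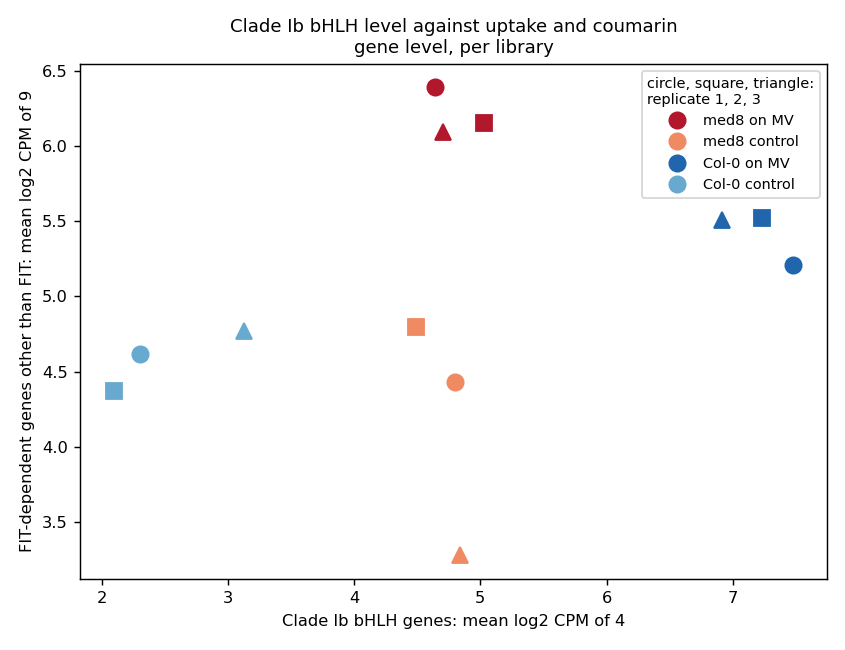
Mean log2 CPM of the 4 clade Ib bHLH genes (horizontal) against that of the 9 genes other than FIT, MYB72 included (vertical), one point per library, coloured by group. Treated med8 libraries have the highest target level, 6.09 to 6.39, at a clade Ib level of 4.64 to 5.03; treated Col-0 libraries have the highest clade Ib level, 6.91 to 7.48, and the triangle at the bottom is med8 control replicate 3.

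Of 18 listed partners and modulators of FIT, the clade Ib genes included, 15 were tested. In med8 with methyl viologen 5 rose and 4 fell (median 0.32), where 21.8% of all genes were called higher and 21.2% lower, and 4 of each without med8 control replicate 3 (median 0.12). In Col-0 7 rose and 2 fell (median 0.38), where 15.4% of all genes were called higher and 13.4% lower. ZAT12, a zinc finger repressor that binds FIT, rose in med8 (1.81 ± 0.25, edgeR adjusted p = 0.000157) and was at 0.24 ± 0.25 in Col-0 (edgeR adjusted p = 0.508), and these responses differed (1.57, edgeR adjusted p = 0.0116). GRF11, a 14-3-3 protein, fell in med8 (−0.70) and in Col-0 (−0.87), while bHLH121, an upstream regulator of the iron response, fell in med8 (−0.44, edgeR adjusted p = 0.000572). The locus AT1G47400 followed the clade Ib genes, with 4.31 ± 0.23 in Col-0 (edgeR adjusted p = 4.81e-07), 0.40 ± 0.20 in med8 (edgeR adjusted p = 0.12) and an interaction of −3.90. On control medium, 6 of the 15 were higher in med8 than in Col-0 and none lower, where 2.81% of all genes were called higher and 2.98% lower. They were the clade Ib genes, AT1G47400 (1.95) and GRF11 (0.76).

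Of 14 other root metal transport genes, 6 rose and none fell in med8 (median 0.52), where 21.8% of all genes were called higher and 21.2% lower. Without med8 control replicate 3, 4 rose and 1 fell (median 0.18). In Col-0 2 rose and 3 fell (median 0.16), where 15.4% of all genes were called higher and 13.4% lower. NRAMP1, a manganese and iron transporter, rose in med8 (0.84 ± 0.12, edgeR adjusted p = 0.000145) and was at −0.24 ± 0.11 in Col-0 (edgeR adjusted p = 0.146), with an interaction of 1.07. FPN2, which loads metals into the vacuole, rose 1.42 and MTP3, a vacuolar zinc transporter, rose 1.20 in med8. FRO3, a mitochondrial ferric reductase, rose in Col-0 (2.11) and was at −0.04 in med8, while FRO4, a root copper reductase, fell in Col-0 (−1.94) and was at −0.05 in med8. HMA3, a vacuolar metal pump, rose in med8 (1.04, and 0.64 without med8 control replicate 3, edgeR adjusted p = 0.0581) and fell in Col-0 (−1.39). Between the genotypes on methyl viologen, 3 of the 14 were higher in med8 (FRO4, NRAMP1 and HMA3) and 2 were lower (FRO3 and IRT2), where 10.8% of all genes were called higher and 12.9% lower. IRT2, a root metal transporter whose gene lies beside IRT1 on chromosome 4, rose in Col-0 (1.47, edgeR adjusted p = 0.0165), was at 0.33 in med8 (edgeR adjusted p = 0.559) and was at −1.21 in treated med8 against treated Col-0 (edgeR adjusted p = 0.0408). It was named after its values were seen, as was AHA1. On control medium, of the 14 edgeR called only NRAMP1 (−0.49, edgeR adjusted p = 0.0296).

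The last list held 14 genes of general phenylpropanoid synthesis, part of which supplies F6'H1 with its substrate, and of coumarin synthesis, handling and control. In med8 6 rose and 2 fell (median 0.13), where 21.8% of all genes were called higher and 21.2% lower, and in Col-0 7 rose and 1 fell (median 0.36), where 15.4% were called higher and 13.4% lower. PAL1, at the entry of the pathway, rose 0.94 in med8 and 0.92 in Col-0, and 4CL2, a coenzyme A ligase, rose 1.12 in med8 and 0.92 in Col-0. CYP98A3 and 4CL1, also enzymes of phenylpropanoid synthesis, rose in Col-0 (0.57 and 0.53) and were at 0.08 and 0.18 in med8, and HCT fell in med8 (−0.35). The regulator MYB15 was higher in med8 than in Col-0 on methyl viologen (1.64, edgeR adjusted p = 0.0109). On methyl viologen 1 of the 14 was higher and 3 were lower in med8, where 10.8% of all genes were called higher and 12.9% lower. The 4 interactions called among the 14 (PAL2, 4CL1, HCT and CYP98A3) were negative, where 7.66% of all genes had a negative call.

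The genes most like FIT and IRT1 over the 12 libraries were sought among 18839 genes of at least 1 CPM, by the root mean square difference of their centred log2 CPM. For FIT they were AT5G22890 (0.13), AT2G31990 (0.18) and AT2G39110 (0.18), and of the other 9 genes AHA2 was nearest among those compared (0.29). AT5G22890 averaged 11.7 CPM in med8 on methyl viologen and 5.94 CPM in med8 controls, against 9.17 CPM in treated Col-0 and 10.3 CPM in Col-0 controls. For IRT1 they were AT4G33070 (0.26), GSTU9, a glutathione S-transferase (0.31), and CYP702A5, a cytochrome P450 (0.32), and FRO2 was nearest among the set (0.37). AT4G33070 averaged 79.2 CPM in med8 on methyl viologen and 21.2 CPM in med8 controls, against 52.3 CPM in treated Col-0 and 17.1 CPM in Col-0 controls. The difference between IRT1 and FIT was 0.94.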

How the data were processed

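Per the labels, RNA of 2-week-old seedlings was made into TruSeq Stranded mRNA libraries and read as 75 bp single ends on a NextSeq 500. Per the submitters' processing notes, the authors trimmed with Trim Galore 0.3.3, aligned with TopHat2 2.1.0 to TAIR10 and counted with featureCounts of Subread 1.4.6. The deposited values are raw read counts per locus for 21543 loci and 12 libraries.

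The 10 genes, the gene lists and the tests were chosen with earlier results of these data known. The lists of FIT partners, metal transporters and phenylpropanoid genes, the markers and the rule for named genes (per list and pairwise comparison the 3 smallest adjusted p, and the 3 genes most like FIT and IRT1) were written down by role, and clade Ib genes were named where a result turned on them. AHA1, IRT2, PAL2, BHLH11, PHO1, PLT1, CASP1 and CASP2 were named after their values were seen.

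Counts were fitted in edgeR 4.0.16 (R 4.3.3, limma 3.58.1) with TMM scaling, filterByExpr (minimum count 10, minimum total 15; 802 loci removed, 20741 left), 1 mean per group over all 12 libraries and the robust quasi-likelihood test; Benjamini-Hochberg adjustment ran over all loci tested. The common biological coefficient of variation was 12.7%. An SE is the size of the log2 fold change divided by the root of its F. The libraries held 30.47 to 34.69 M counts each. Counting error is largest for MYB72, and it also bears on FIT and MYB10, which had 71 and 41 reads in med8 control replicate 3. Gene models and promoters came from RefSeq TAIR10.1, matched by locus (21519 loci); the count table holds no coordinates. The fit was tested on simulated counts. The alternatives were DESeq2 1.42.0, scaling by RLE or by the upper quartile, fits with no filter or with one of 1 CPM in 3 libraries, replicate number as a block, 2-group fits and leaving out each library in turn. Leaving out 2 libraries together (Col-0 control replicate 1 and med8 control replicate 3) was chosen after seeing the data.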

Additional observations from a re-analysis of the deposited data

Results flagged for a closer look

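The responses of med8 and Col-0 to methyl viologen differed past the threshold (edgeR interaction, med8 response minus Col-0 response, log2) for 4 of the 10 genes, which were FIT at 1.23, AHA2 at 0.88, S8H at 2.26 and CYP82C4 at 2.48. Among the clade Ib genes the differences were −4.82 for BHLH38, −3.71 for BHLH39, −5.37 for BHLH100 and −4.37 for BHLH101. Of the other listed regulators named by the rule, AT1G47400 was at −3.90, bHLH121 at −0.39 and ZAT12 at 1.57. Of the metal transport genes, FRO3 was at −2.15, while FRO4 (1.89), HMA3 (2.42) and NRAMP1 (1.07) were positive. The phenylpropanoid genes 4CL1 (−0.35), HCT (−0.35) and CYP98A3 (−0.49) were negative. Further called interactions in the 3 pathway lists, named after their values were seen, were those of PAL2 (−0.58, edgeR adjusted p = 0.00855) and BHLH11 (1.21, edgeR adjusted p = 0.0492). Of all genes, 6.25% had a called positive interaction and 7.66% a negative one.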

How the results depend on the processing

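Counts here leave out MYB72, which the 1 CPM filter removed. The rise in med8 with methyl viologen was called for 9 of 9 genes in every alternative but the fit of those 2 groups alone. That fit called 8, with FIT at an edgeR adjusted p of 0.0509. Over these alternatives 17.0% to 25.8% of all genes were called higher. In Col-0, 2 genes were called higher. DESeq2 called 3, where it called 16.1% of all genes, and the fit of 2 groups called 6, where 14.3% of all genes were. Without both libraries that stood apart 7 were, where 19.1% of all genes were. Over the fits without 1 library 2 to 6 were, where 11.4% to 18.6% of all genes were. The 6 came without med8 control replicate 3. Over those fits 0 to 1 were called lower, where 9.51% to 16.9% of all genes were. Between med8 and Col-0 controls, 0 to 1 were called higher and 0 to 2 lower over the fits without 1 library. Of all genes, 0.858% to 3.53% were called higher and 1.09% to 4.46% lower in those fits. With upper quartile scaling and with DESeq2, 2 were lower, where 3.25% and 4.72% of all genes were. Without both libraries 1 was higher and 2 were lower, where 4.49% of all genes were higher and 4.41% lower. On methyl viologen the 5 calls were 1 to 7 over the fits without 1 library, where 6.60% to 14.3% of all genes were called higher. They were 7 in the fit of 2 groups and 7 without both libraries, where 15.1% and 16.8% of all genes were. The 4 positive interactions were 2 to 6 over the fits without 1 library, where 3.99% to 7.12% of all genes were called. With upper quartile scaling and with DESeq2 they were 5, where 7.02% and 7.23% of all genes were.

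Signs turned for values that were never called. Of med8 against Col-0 controls, IRT1 was −0.02 with the replicate block. Over the fits without 1 library IRT1 ranged from −0.51 to 0.48, FRO2 from −0.33 to 0.54, CYP82C4 from −1.09 to 0.05 and PDR9 from −0.48 to 0.05, and without both libraries CYP82C4 and PDR9 were 0.07 and 0.06. In the med8 response BHLH100 ranged from −0.2 to 0.12 over those fits and was 0.12 without both libraries. The cause was not tested.

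Of 18 correlations of deviations between libraries with the same replicate number, 7 were over 0.1, and they ranged from −0.379 to 0.458. Those of replicate 2 were all positive, from 0.068 to 0.458. The check cannot tell whether a replicate number marks a pairing or a batch. With the replicate block, and without MYB72, 2 genes were called higher in Col-0 and 9 in med8, where 14.5% and 21.6% of all genes were. On methyl viologen 4 were called higher in med8 than in Col-0 and 4 had a positive interaction, where 10.2% and 5.95% of all genes did. MYB72, with 1 to 22 reads per library, is the gene that depth limits most.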
